A study of Homo sapiens with 3 samples.

Results

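The 49 genes described here encode the proteins that license, unwind and copy DNA, together with the cyclin E and E2F proteins that govern the passage from G1 into S phase. They were chosen by name. Both they and the gene lists set beside them were chosen with earlier results of these data known. All 49 were measured, through 93 of the 54675 probe sets of the array, out of 19775 genes that have a probe set of their own. The cells were SKBR3, an established human breast cancer line known for ERBB2 amplification and for lacking oestrogen receptor α. Before treatment they were kept for 4 h with charcoal-stripped serum, from which steroid hormones are largely removed. They were then treated for 3 h with 0.1% ethanol (the vehicle), with 1 µM estradiol, or with 1 µM ERα17p, a synthetic peptide taken from the sequence of oestrogen receptor α. All 3 groups were unmodified SKBR3 cells, each group had 1 array, and no difference below has a replicate, an error or a test.

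A cell licenses its replication origins in G1, when the origin recognition complex (ORC), CDC6 and CDT1 load the ring-shaped MCM helicase onto DNA. Cyclin E with its kinase then promotes firing of these origins, CDC45 and the GINS complex join the helicase, and polymerases held by the sliding clamp PCNA copy the strands. Transcription of most of these genes is driven by E2F factors, which are held in check by the retinoblastoma protein until growth signals release them. In oestrogen-dependent breast cancer cells, estradiol is known to advance cells from G1 into S phase through this route.

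Values are log2 distances from a reference level (the baseline) removed from every probe set before deposit. The 3 arrays can therefore be set against each other for any gene, while no gene's expression level can be read. "Higher" and "lower" below are used of genes 1.5-fold or more apart between arrays (0.585 log2 units), "above" and "below" of the sign alone. A smaller limit of 0.32 log2 units is given beside it. One array stood apart, the array labelled vehicle: 465 genes exceeded the baseline 1.5-fold there, 1 did with estradiol and 13 did with ERα17p. The cytokine gene CXCL8 had 6.93 there, against -0.31 and 1.65. Control probe sets at the 3′ and 5′ ends of ACTB and GAPDH track RNA integrity. For ACTB the 3′ minus 5′ value, relative to the baseline, was 0.30 there, 0.023 with estradiol and -0.044 with ERα17p. For GAPDH it was 0.046, 0.010 and -0.027. Since each probe set is centred, only the contrast between arrays can be read, and not the integrity of RNA on any array. The part of this array's state in the differences from it was not tested. The members' counts and medians against it are therefore also given with the baseline in its place. For the other gene lists the medians alone are given that way. The line's defining markers (ERBB2, GRB7, KRT8, KRT18, KRT19 and EPCAM) could not be used to check the cells, since levels are not readable.

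Promoter sequence, which the choice of members did not use, is shown first. Words of the E2F site (TTTCCCGC, TTTCGCGC, TTTGCCGC or TTTGGCGC, on either strand) were searched in RefSeq promoters of assembly GRCh38.p14, each spanning 250 bases before to 50 after a gene's start. Promoters were found for 42 of the 49 genes, 54 in all, and not for RPA2, MCM4, E2F8, POLD3, MCM5, GINS4 and CCNE2. An E2F word stood in 24 of the 54 member promoters (44.4%), and in 1164 of all 35116 promoters (3.31%). The next lines give the promoters, 5′ to 3′ on the gene's strand, of 4 word-holding members, ranked by the smaller of their absolute differences from the array labelled vehicle in the estradiol and ERα17p comparisons. They are GINS3 (chr16:58392221-58392520, + strand), GINS1 (chr20:25407423-25407722, + strand), TYMS (chr18:657403-657702, + strand) and POLA1 (chrX:24693668-24693967, + strand). Capitals mark the E2F word.
GINS3: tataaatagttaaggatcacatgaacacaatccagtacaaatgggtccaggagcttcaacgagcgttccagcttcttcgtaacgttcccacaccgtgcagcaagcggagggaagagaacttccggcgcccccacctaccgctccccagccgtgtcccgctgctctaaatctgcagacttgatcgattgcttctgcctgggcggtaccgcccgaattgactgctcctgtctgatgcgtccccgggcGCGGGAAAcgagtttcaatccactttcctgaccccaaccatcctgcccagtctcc
GINS1: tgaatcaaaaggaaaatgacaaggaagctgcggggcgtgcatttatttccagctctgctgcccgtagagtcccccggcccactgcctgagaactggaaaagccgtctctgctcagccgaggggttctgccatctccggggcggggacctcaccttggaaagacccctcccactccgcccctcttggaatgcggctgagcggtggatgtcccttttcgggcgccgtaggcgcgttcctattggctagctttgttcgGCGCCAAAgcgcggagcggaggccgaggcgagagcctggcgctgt
TYMS: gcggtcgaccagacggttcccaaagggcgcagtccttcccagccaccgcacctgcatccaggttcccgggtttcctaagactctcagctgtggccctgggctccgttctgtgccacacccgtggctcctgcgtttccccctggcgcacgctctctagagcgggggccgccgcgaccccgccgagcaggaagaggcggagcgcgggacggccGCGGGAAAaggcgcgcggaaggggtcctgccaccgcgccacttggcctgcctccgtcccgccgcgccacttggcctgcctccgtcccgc
POLA1: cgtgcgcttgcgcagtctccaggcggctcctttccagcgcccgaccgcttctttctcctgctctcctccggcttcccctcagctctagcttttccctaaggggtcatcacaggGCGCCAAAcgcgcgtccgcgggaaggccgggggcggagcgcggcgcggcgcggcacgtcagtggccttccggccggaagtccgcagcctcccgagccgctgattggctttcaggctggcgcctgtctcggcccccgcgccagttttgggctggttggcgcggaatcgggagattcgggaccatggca
All 4 hold the word in its reverse form, GCGGGAAA in GINS3 and TYMS and GCGCCAAA in GINS1 and POLA1. Counted from the gene's start, it begins at -5 in GINS3, -39 in TYMS, -137 in POLA1 and 5 in GINS1. GINS3 was below the array labelled vehicle on both treated arrays, whereas GINS1, TYMS and POLA1 were above it.

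Promoters of mitotic and G2/M genes, the list nearest to these genes in the cell cycle, had another make-up. The cell cycle homology region words (CHR, TTTGAA or TTCGAA on either strand), which mark genes of G2 and mitosis, stood in 29 of 43 G2/M promoters (67.4%), in 3 of 54 member promoters (5.56%) and in 16.4% of all promoters. E2F words stood in 3 of the 43 G2/M promoters (6.98%). The CCAAT box (CCAAT on either strand) stood in 32 of 54 member promoters (59.3%), in 32 of 43 G2/M promoters (74.4%) and in 34.6% of all. No searched word is contained in another, and a match describes letters and not a bound site. Among 46 further replication and S-phase genes, E2F words stood in 16 of 58 promoters (27.6%), and among regulators of G1/S entry in 4 of 40 (10.0%).

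**Figure D1:**
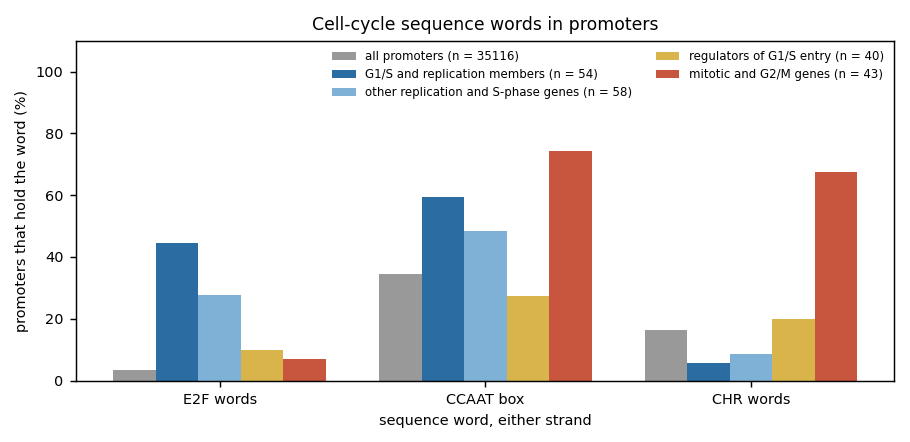
Share of promoters (y axis, percent) that hold an E2F, CCAAT or CHR word on either strand (x axis), with 1 bar for each gene list and the number of promoters in the legend. Members lead in E2F words (44.4%), and the G2/M list leads in CHR words (67.4%).

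Holding an E2F word went with little in the values. The 23 members with the word had a median difference of 0.051 between estradiol and the array labelled vehicle (range -0.46 to 0.30), and the 19 with a promoter but no word had 0.026 (range -0.33 to 0.38). For ERα17p against the same array the medians were 0.11 in members with the word and 0.11 in those without.

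On the arrays, these genes stayed close together. The 3 array values of a member spanned a median of 0.19 log2 units, which is also the median over all genes (0.19). In 42 of 49 members the span was under 0.32, against 77.6% of all genes. It was smallest in POLD1, the catalytic subunit of polymerase δ (0.024), and largest in E2F8 (0.89). The array labelled vehicle was the outermost of the 3 in 37 of 49 members (75.5%) and in 76.8% of all genes. ERα17p had the highest value in 35 of 49 members (71.4%), against 34.3% of all genes. Estradiol had it in 6 (12.2%, against 34.4% of all genes) and the array labelled vehicle in 8 (16.3%, against 31.3%). In the other lists ERα17p was highest in 77.5% of mitotic and G2/M genes, 65.2% of further replication genes and 41.4% of regulators of G1/S entry.

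**Figure D2:**
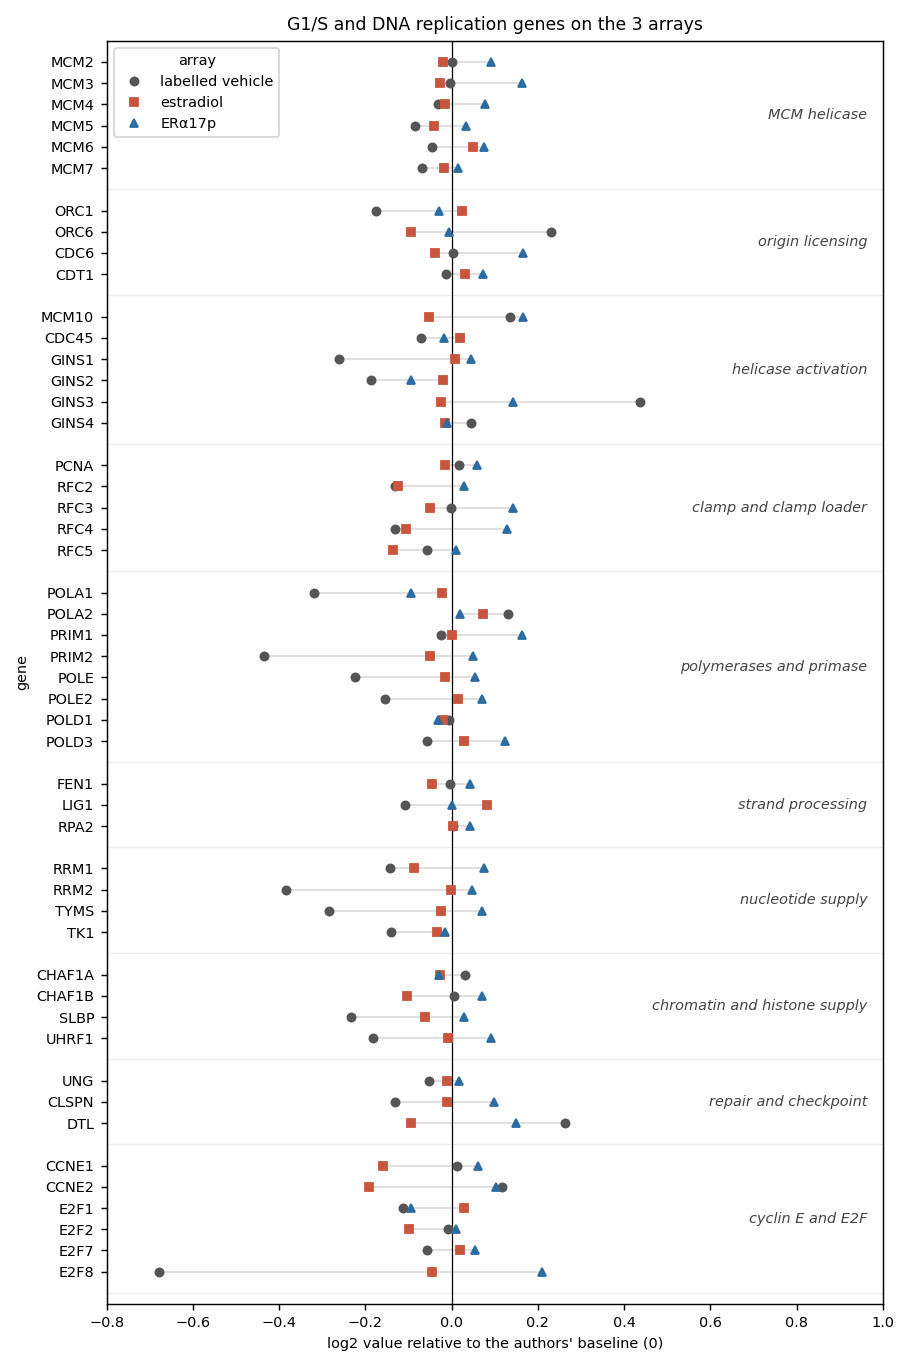
Values of the 49 genes (rows, grouped by role) on the arrays labelled vehicle (circles), estradiol (squares) and ERα17p (triangles), as log2 distance from the authors' baseline (x axis, 0 marked). ERα17p is the rightmost symbol in 35 of 49 rows, and E2F8 has the widest span (0.89).

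The order vehicle, estradiol, ERα17p from low to high held in 23 of 49 members (46.9%) and in 21.9% of all genes. The order estradiol, vehicle, ERα17p held in 12 (24.5% against 12.6%). That second group comprised MCM2, MCM3, CDC6, MCM10, PCNA, RFC3, RFC5, FEN1, RPA2, CHAF1B, CCNE1 and E2F2. In 6 members (ORC1, CDC45, GINS2, POLA1, LIG1 and E2F1) estradiol was the highest and the array labelled vehicle the lowest (12.2%, against 23.6% of all genes). In 5 (ORC6, GINS3, GINS4, DTL and CCNE2) the array labelled vehicle was the highest and estradiol the lowest (10.2% against 19.6%). In the last 3 (POLA2, POLD1 and CHAF1A) the array labelled vehicle was the highest and ERα17p the lowest (6.12% against 11.6%). The order ERα17p, vehicle, estradiol, which 10.7% of all genes had, was not found among the members. These orders are those of gene values. Single probe sets of a gene could have another order, as in E2F2, E2F7 and POLA2.

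The first comparison asks whether estradiol moved the replication programme within 3 h. On the estradiol array 1 member, E2F8, was higher than on the array labelled vehicle, and 0 were lower. Of all genes, 0.809% were higher and 2.93% lower. At the smaller limit of 0.32, 3 members (E2F8, PRIM2 and RRM2) were higher, where 7.65% of all genes were, and 3 (GINS3, DTL and ORC6) were lower, where 8.49% were. The 6.12% of members reached in each direction lie below these background shares. The median difference over the members was 0.042, against 0.029 over all genes, and 29 of 49 (59.2%) lay above 0, against 56.1%. The members' median was 0.019 with each array centred on its median over genes. With the baseline in place of the array labelled vehicle it turned to -0.021 and no member was higher or lower. Of all genes, only 0.00506% were higher and 0.0506% lower by that reference.

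The second comparison asks the same of the peptide. On the ERα17p array again 1 member was higher than on the array labelled vehicle, E2F8, and 0 were lower, with 0.582% of all genes higher and 2.14% lower. At the smaller limit of 0.32, 4 members were higher (E2F8, PRIM2, RRM2 and TYMS) and 0 lower, where 5.85% and 6.98% of all genes passed. The members' median was 0.11, against 0.033 over all genes, and 41 of 49 (83.7%) lay above 0, against 58.0%. With the baseline as reference the median was 0.053 and no member was higher or lower, where 0.0657% and 0.00506% of all genes were. Both comparisons share the array labelled vehicle, so their values are given side by side and not counted as separate evidence.

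The third comparison sets estradiol against ERα17p and does not use the array labelled vehicle. No member was higher or lower, where 0.147% and 0.207% of all genes were. At 0.32 the members had 0 in either direction, against 2.98% of all genes higher and 2.41% lower. The differences were small and mostly of 1 sign: 40 of 49 members (81.6%) lay below 0, against 53.9% of all genes. They ran from -0.29 in CCNE2 to 0.12 in E2F1, with a median of -0.089 (all genes -0.012). The sign was not particular to the members. Below 0 also lay 84.8% of the 46 further replication genes, 77.5% of the mitotic and G2/M genes and 72.4% of the regulators of G1/S entry. These 2 arrays have no replicates, so the size of such a shift between untreated cultures is unknown.

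**Figure D3:**
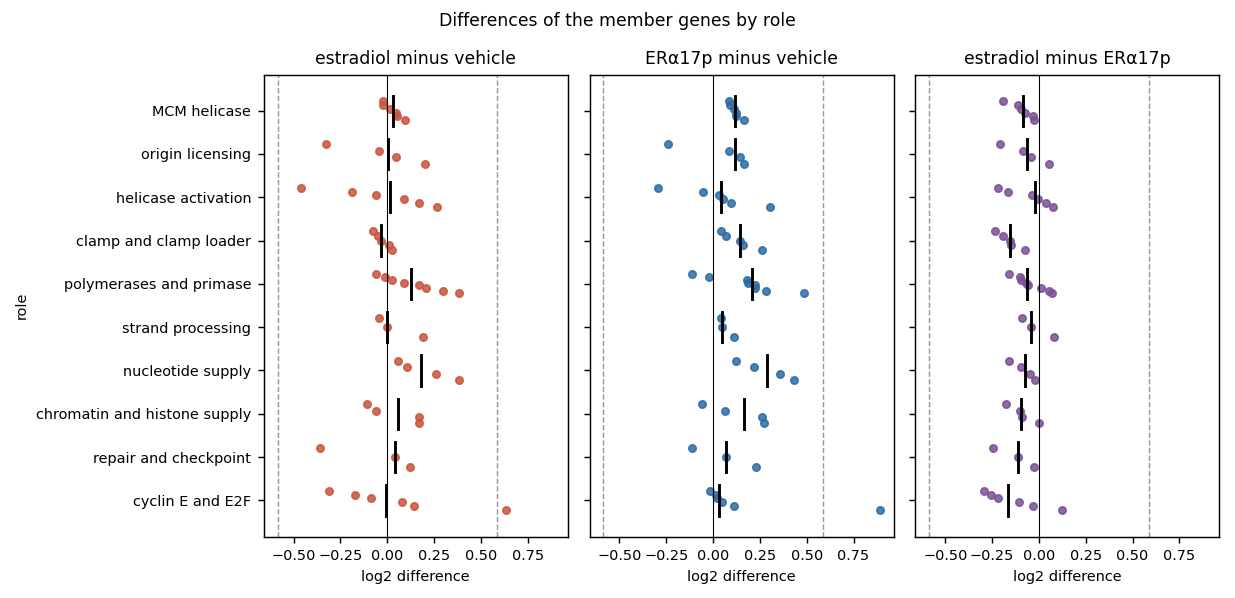
Log2 difference (x axis) of each member (points) by role (rows) in the 3 comparisons; black bars are the role's median and dashed lines mark 1.5-fold. E2F8 is the only point past a dashed line, at 0.63 with estradiol and 0.89 with ERα17p.

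E2F8 had the widest differences from the array labelled vehicle of any member. The medians of its role, the E2F family and cyclin E, were only -0.0056 with estradiol and 0.034 with ERα17p against that array. Where 3 values of a gene are given without a label, they follow the order vehicle, estradiol, ERα17p. E2F8 is an atypical E2F that represses E2F targets late in S phase. Its value was -0.68 on the array labelled vehicle, -0.046 with estradiol and 0.21 with ERα17p. It was lowest on the array labelled vehicle and highest with ERα17p, so that E2F8 stood 1.55-fold above it with estradiol and 1.85-fold with ERα17p. Of all genes, 98 had a larger positive difference in the first case and 9 in the second. Against the baseline E2F8 lay at -0.046 with estradiol, with the sign turned, and at 0.21 with ERα17p. A single probe set reads it, and genes with 1 probe set were more often higher than those with several: 1.49% against 0.209% for estradiol and 0.973% against 0.238% for ERα17p.

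E2F7, its close relative and likewise a repressor, had -0.058 on the array labelled vehicle, 0.020 with estradiol and 0.053 with ERα17p. Its gene value kept the order of E2F8 but differed from the array labelled vehicle by only 0.078 and 0.11. The 2 probe sets of E2F7 had opposite signs with estradiol (-0.14 and 0.29), and neither had that order. The activator E2F1 had -0.11, 0.028 and -0.095 in the same order of arrays, so that estradiol alone stood above the other arrays, by 0.14 and 0.12. Its activator partner E2F2 had -0.0093, -0.10 and 0.0093. The 3 probe sets of E2F2 disagreed in sign. They differed by 0.22, -0.18 and 0.053 between estradiol and the array labelled vehicle, and by 0.22, -0.20 and 0.16 between estradiol and ERα17p.

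Cyclin E binds CDK2 and starts S phase. CCNE2, which encodes cyclin E2, had 0.12 on the array labelled vehicle, -0.19 with estradiol and 0.10 with ERα17p. CCNE1, for cyclin E1, had 0.011, -0.16 and 0.061. For both, the estradiol array was the low one and the other arrays lay near each other. Estradiol minus ERα17p was -0.29 for CCNE2, the widest difference of any member in that comparison, and -0.22 for CCNE1. Both probe sets of CCNE2 had that sign (-0.20 and -0.39), whereas those of CCNE1 did not (-0.45 and 0.014).

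The MCM helicase, a ring of MCM2 to MCM7 that unwinds DNA, had values close together. Its 6 genes ran from -0.021 (MCM3) to 0.097 (MCM6) between estradiol and the array labelled vehicle. With ERα17p they ran from 0.084 (MCM7) to 0.17 (MCM3), all 6 above 0. All 6 lay below 0 between estradiol and ERα17p, from -0.19 (MCM3) to -0.024 (MCM6). In MCM3 the values were -0.0051, -0.026 and 0.16, with the peptide's array high and the others close. MCM4, with 5 probe sets, had -0.032, -0.016 and 0.078, and all 5 of its probe sets lay above the array labelled vehicle with ERα17p, by 0.066 to 0.17. In the same order of arrays, MCM2 had -0.00010, -0.021 and 0.091. MCM5 had -0.086, -0.040 and 0.034, MCM6 had -0.047, 0.050 and 0.075 and MCM7 had -0.069, -0.018 and 0.015, all lowest on the array labelled vehicle and highest with ERα17p.

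The licensing factors did not share a direction. ORC6, the smallest ORC subunit, had 0.23 on the array labelled vehicle, -0.094 with estradiol and -0.0069 with ERα17p. Its high array was the one labelled vehicle, with differences of -0.33 for estradiol and -0.24 for ERα17p. A single probe set reads ORC6, of a type that can take up several transcripts. ORC1, the subunit that comes and goes with the cell cycle, went the other way, with -0.18, 0.025 and -0.030. CDC6, which loads the helicase with ORC, had 0.0024, -0.040 and 0.17, likewise high with ERα17p alone. CDT1, its loading partner, had -0.014, 0.032 and 0.073, though its 2 probe sets differed in sign with ERα17p (-0.059 and 0.23 from the array labelled vehicle).

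Among the factors that activate the helicase, the GINS subunits parted although they form 1 complex of 4 proteins. GINS3 had 0.44 on the array labelled vehicle, -0.024 with estradiol and 0.14 with ERα17p. GINS1 had -0.26, 0.0068 and 0.044. GINS3 was thus high and GINS1 low on the array labelled vehicle, and the differences from it were -0.46 and -0.30 for GINS3 and 0.27 and 0.30 for GINS1. GINS3 was the lowest member in both comparisons, and 932 of all genes were lower still with estradiol. Its 2 probe sets had like differences, -0.50 and -0.42 with estradiol and -0.29 and -0.31 with ERα17p.

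GINS2 had -0.19, -0.020 and -0.094, and GINS4 had 0.044, -0.016 and -0.010. The 3 probe sets of GINS2 disagreed in sign, from -0.13 to 0.26 with estradiol and from -0.14 to 0.27 with ERα17p. The 4 probe sets of GINS4 disagreed, from -0.47 to 0.33 with ERα17p, the widest spread of any member. MCM10, which helps start the helicase, had 0.14, -0.052 and 0.16, with estradiol low and the other arrays close. CDC45, the third part of the active helicase, had -0.071, 0.018 and -0.018.

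All 5 genes of the clamp and its loader had their highest value with ERα17p. PCNA had 0.016 on the array labelled vehicle, -0.016 with estradiol and 0.059 with ERα17p. RFC4, a subunit of the loader that puts PCNA on DNA, had -0.13, -0.11 and 0.13. For RFC4 the array labelled vehicle and the estradiol array lay close, ERα17p minus the array labelled vehicle was 0.26 and estradiol minus ERα17p was -0.23. All 5 genes of this role lay above the array labelled vehicle with ERα17p (0.043 to 0.26) and below ERα17p with estradiol (-0.23 to -0.075). Between estradiol and the array labelled vehicle they ran from -0.078 (RFC5) to 0.026 (RFC4). The other loader subunits had, in the same order of arrays, -0.13, -0.12 and 0.029 for RFC2, -0.0014, -0.051 and 0.14 for RFC3 and -0.058, -0.14 and 0.011 for RFC5. By gene value each was highest with ERα17p. The 3 probe sets of RFC5 disagreed in sign, from -0.14 to 0.22 between ERα17p and the array labelled vehicle.

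Polymerases and primase had a median of 0.13 for estradiol and 0.21 for ERα17p against the array labelled vehicle, with 6 of 8 genes above 0 in each. PRIM2, the large subunit of primase, which lays down RNA primers, had -0.43 on the array labelled vehicle, -0.050 with estradiol and 0.050 with ERα17p. It stood above the array labelled vehicle by 0.38 and 0.48, read by 1 probe set. Its 4 further probe sets, which the annotation shares with the pseudogene PRIM2BP, were not used and differed by -0.013 to 0.10 with estradiol and by -0.12 to 0.40 with ERα17p. Its partner PRIM1 had -0.025, 0.0015 and 0.16, so that both subunits had the same order of arrays.

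POLA1, the catalytic subunit of polymerase α, had -0.32, -0.023 and -0.094, with the array labelled vehicle low. POLA2, its regulatory partner, had 0.13, 0.073 and 0.018, with the array labelled vehicle high. The 3 probe sets of POLA2 disagreed in sign against that array. They differed by 0.027, -0.072 and 0.016 with estradiol, and by 0.13, -0.13 and -0.24 with ERα17p. In polymerase ε, the leading-strand enzyme, POLE had -0.23, -0.016 and 0.055 and POLE2 had -0.15, 0.015 and 0.071, the same order in both. In polymerase δ, POLD1 had -0.0070, -0.019 and -0.031, close together on all 3 arrays, and POLD3 had -0.058, 0.030 and 0.12.

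Strand processing genes differed little. The nick-sealing ligase LIG1 had -0.11 on the array labelled vehicle, 0.083 with estradiol and 0.0013 with ERα17p, so that estradiol was highest. The flap nuclease gene FEN1 had -0.0039, -0.047 and 0.042. RPA2, a subunit of the protein that coats unwound DNA, had 0.0021, 0.0018 and 0.043.

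By gene value, nucleotide supply was the role in which all members lay above the array labelled vehicle in both comparisons. RRM2, the cell-cycle-regulated subunit of ribonucleotide reductase, had -0.39 on the array labelled vehicle, -0.0017 with estradiol and 0.047 with ERα17p. TYMS, which makes thymidylate, had -0.29, -0.025 and 0.070. Both were low on the array labelled vehicle, and the treated arrays lay within 0.095 of each other. RRM1, the catalytic subunit, had -0.14, -0.087 and 0.075, and the thymidine kinase gene TK1 had -0.14, -0.034 and -0.015. The 2 probe sets of RRM1 had opposite signs with estradiol (-0.14 and 0.26). A probe set of TYMS lay below the array labelled vehicle with estradiol (-0.36) and with ERα17p (-0.10). Role medians were 0.18 for estradiol and 0.29 for ERα17p, the highest of the 10 roles in each comparison.

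In chromatin and histone supply, SLBP, which binds histone mRNA, had -0.23, -0.061 and 0.029 on the arrays labelled vehicle, estradiol and ERα17p. UHRF1, which keeps DNA methylation through replication, had -0.18, -0.0093 and 0.090, the same order. The subunits of chromatin assembly factor 1 did not follow: CHAF1A had 0.032, -0.027 and -0.030, and CHAF1B had 0.0049, -0.10 and 0.070. The 4 probe sets of CHAF1A disagreed in sign against the array labelled vehicle. They ran from -0.24 to 0.19 with estradiol and from -0.39 to 0.059 with ERα17p.

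Of the repair and checkpoint genes, DTL, a ubiquitin ligase adaptor that clears CDT1 in S phase, had 0.26 on the array labelled vehicle, -0.095 with estradiol and 0.15 with ERα17p. It was lowest with estradiol, which differed by -0.36 from the array labelled vehicle and by -0.24 from ERα17p, and its 2 probe sets had the same sign in all 3 comparisons. CLSPN, for the checkpoint mediator claspin, had -0.13, -0.011 and 0.10. The uracil glycosylase gene UNG had -0.053, -0.011 and 0.017.

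Of the 49 members, 28 had 2 or more probe sets. All probe sets of a gene had 1 sign in 12 of the 28 (42.9%) for estradiol against the array labelled vehicle, in 18 (64.3%) for ERα17p against it, and in 17 (60.7%) for estradiol against ERα17p. Over all 10523 genes with as many probe sets the shares were 46.3%, 45.9% and 38.5%. Where members agreed, 16 of the 18 lay above the array labelled vehicle with ERα17p and 16 of the 17 lay below ERα17p with estradiol. Over all genes that agreed, 2876 of 4827 and 2491 of 4051 did. The median standard deviation between probe sets of a member was 0.085, 0.082 and 0.095 log2 units in the 3 comparisons. GINS4, TYMS and CLSPN spread most. The 3 probe sets of TYMS ran from -0.36 to 0.39 with estradiol, and the 4 of CLSPN from -0.32 to 0.40.

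**Figure D4:**
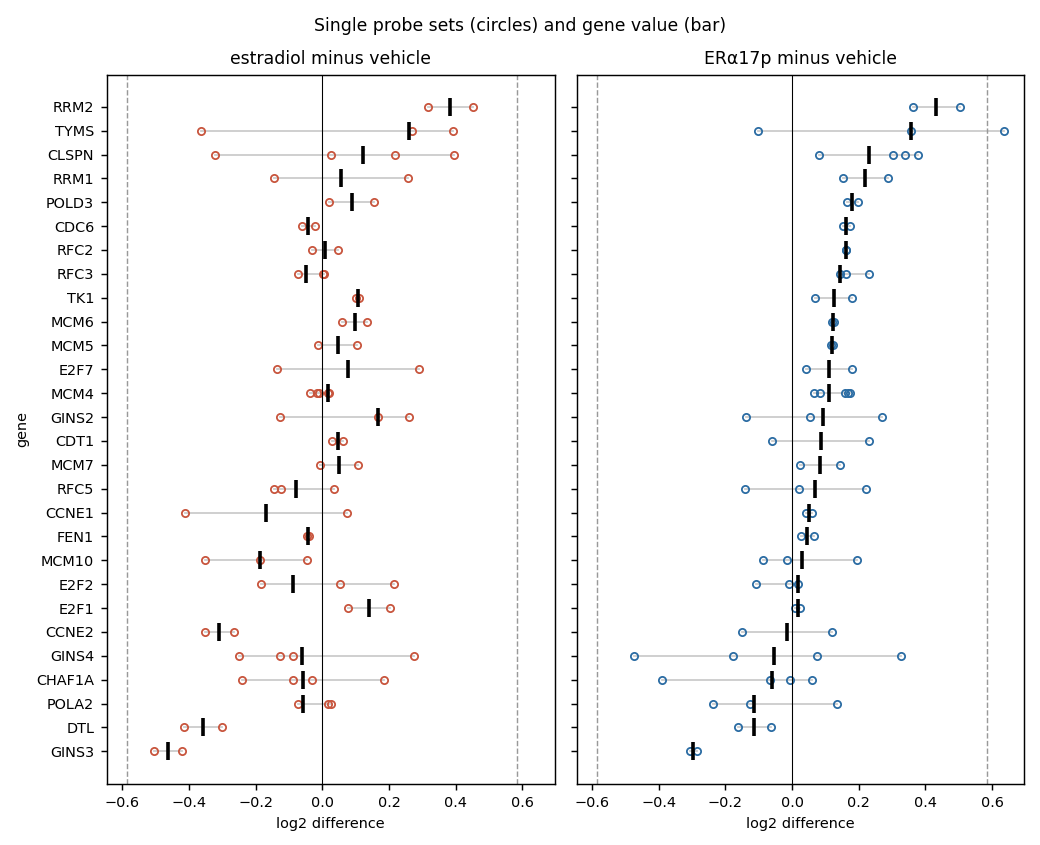
Log2 difference (x axis) from the array labelled vehicle of every probe set (circles) and the gene value (black bar) for the 28 members with 2 or more probe sets (rows), with estradiol (left) and ERα17p (right); dashed lines mark 1.5-fold. RRM2 and GINS3 have probe sets that lie together, and those of GINS4, TYMS and CLSPN lie on both sides of 0 in at least 1 panel.

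Genes of the same pathway outside the 49 were read next. Of 46 measured genes of replication and S phase, 0 were higher or lower in any of the 3 comparisons. Of all genes, between 0.147% and 2.93% were, depending on comparison and direction. At the smaller limit of 0.32, only TICRR, which helps origins fire, was above the array labelled vehicle with estradiol, by 0.43. That is 2.17% of the list, against 7.65% of all genes. With ERα17p 3 were, namely TICRR (0.46), RMI2 (0.34) and FANCI (0.32), where FANCI had 0.27 with estradiol. These are 6.52% of the list, near the 5.85% of all genes. The medians of the 46 were 0.041 with estradiol and 0.10 with ERα17p, or -0.019 and 0.043 with the baseline as reference. Between estradiol and ERα17p the median was -0.075, where 39 of 46 (84.8%) lay below 0. The widest differences there were those of ASF1A, a histone chaperone gene (-0.26), and RMI2 (-0.23). ERα17p was the highest array in 30 of 46 (65.2%).

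Mitotic and G2/M genes differed from the replication genes in size against the array labelled vehicle. Of 40, 6 were higher with estradiol (15%, against 0.809% of all genes) and 10 with ERα17p (25%, against 0.582%), with medians of 0.37 and 0.43, against 1 of 49 members and medians of 0.042 and 0.11. The largest were PSRC1, a spindle gene (0.89 with estradiol, 0.95 with ERα17p), the mitotic motor gene KIF23 (0.85 and 0.93) and CCNF, for cyclin F (0.88 and 0.91). On the array labelled vehicle 38 of the 40 lay below the baseline, with a median of -0.38, against 36 of 49 members with a median of -0.058. With the baseline as reference the G2/M medians were only -0.012 with estradiol and 0.040 with ERα17p. The highest G2/M values were then 0.063 and 0.28, so none of the 40 was higher. The members' medians were -0.021 and 0.053 by that reference. Between estradiol and ERα17p the medians were -0.050 for G2/M and -0.089 for the members. NDC80, a kinetochore gene (-0.38), was the only one of the 40 past 0.32 there, followed by CENPA, for the centromeric histone (-0.26). The 3 members with the largest positive differences from the array labelled vehicle, E2F8, PRIM2 and RRM2, lay within the range of the G2/M list (-0.065 to 0.89 with estradiol and 0.026 to 0.95 with ERα17p).

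**Figure D5:**
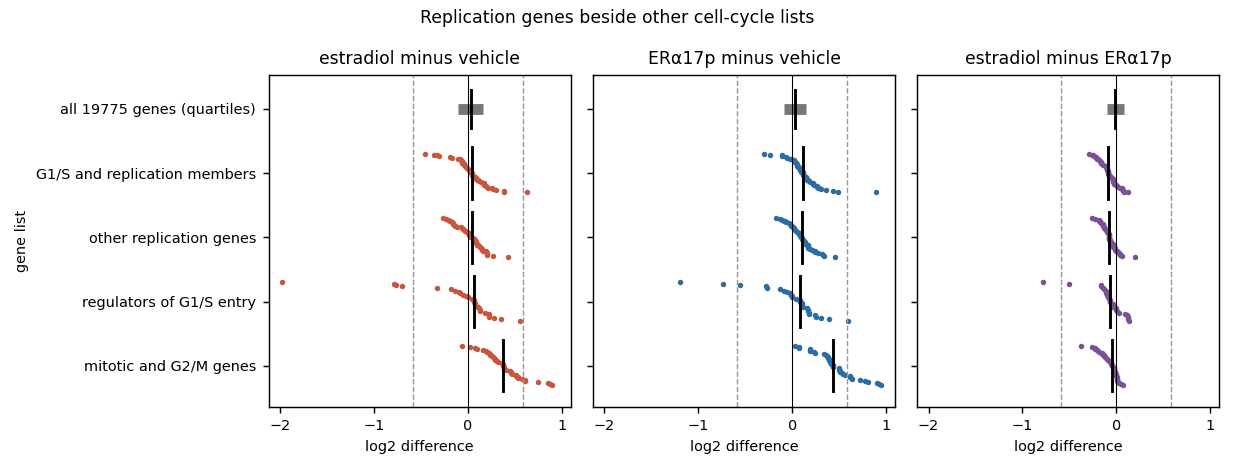
Log2 differences (x axis) of single genes (points) in 4 cell-cycle lists (rows) in the 3 comparisons, with list medians as black bars; the top row gives the median and quartiles of all 19775 genes, and dashed lines mark 1.5-fold. The G2/M list is shifted to the right against the array labelled vehicle (medians 0.37 and 0.43); the medians of the replication lists with ERα17p are 0.11 and 0.10, against 0.033 over all genes.

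Upstream of the replication genes, 29 regulators of G1/S entry were measured. With estradiol 0 were higher than on the array labelled vehicle and 4 were lower: CDKN1A (-1.98) and CDKN2B (-0.79), which encode the CDK inhibitors p21 and p15, and the E2F family genes E2F6 (-0.77) and E2F3 (-0.70). These 4 are 13.8% of the list, against 2.93% of all genes lower and 0.809% higher. With ERα17p, CDKN1A (-1.20) and E2F6 (-0.74) were lower and CCNA2, for cyclin A2, was higher (0.59), which is 6.90% and 3.45% of the list against 2.14% and 0.582% of all genes. CDKN1A had 1.30 on the array labelled vehicle, -0.68 with estradiol and 0.098 with ERα17p, and it was lower with estradiol than with ERα17p (-0.78), the only regulator 1.5-fold apart there. CDKN2B followed with -0.51. All 4 regulators lower with estradiol were highest on the array labelled vehicle: E2F3 had 0.69, E2F6 0.77 and CDKN2B 0.57 on it. CDKN1A and E2F6 are each read by 1 probe set, and E2F3 and CDKN2B by 2 each. The medians of the list, 0.063 with estradiol and 0.086 with ERα17p, stood beside 0.042 and 0.11 for the replication genes. With the baseline as reference they were -0.0043 and 0.060, beside -0.021 and 0.053.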

How the data were processed

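RNA of 3 SKBR3 samples, 1 per treatment, was measured on 1 Affymetrix whole-genome array each; groups came from the sample labels. Per the submitters' processing notes the authors used RMA, and no source used here gives its version. The authors' deposited values were taken to be log2, the scale RMA puts out, though the base is unstated. Column medians lie between -0.021 and 0.0024, and in 3979 of 54675 probe sets (7.28%; 12 of the 93 member probe sets) a pair of arrays holds mirror-image values around 0 (tolerance 1e-06, values over 0.001). Values were therefore taken as centred per probe set on a baseline from more arrays than these 3. Precision is limited by having 3 arrays.

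The array's annotation gave 41091 probe sets with 1 symbol and 19775 genes; 41037 Entrez IDs matched GRCh38.p14 and 0 symbols changed. A gene's value on an array was the median over its probe sets, and differences were taken between arrays, with no filter, in pandas 2.3.3 and numpy 2.4.6 under Python 3.11.15. With 1 array per group no test was run, and genes were counted at 1.5-fold and at 0.32 log2 units, with the same share over all genes. The script that forms gene values and counts folds was tested on simulated data with known changes. Members and lists were chosen with earlier results of these data known. Named by rule were members called in any comparison, the 3 extremes each way, the extremes of each role, the 3 members with the widest probe-set spread and, of other lists, the 2 genes with the largest absolute difference per comparison; the remaining members were added to show their values, and other genes named beside counts of 5 or fewer were chosen after their values were seen. Alternatives were the mean over probe sets, probe sets without shared transcripts, centred arrays, the baseline as reference, other folds and list means. A few genes of the written lists are not reported here.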

Additional observations from a re-analysis of the deposited data

How the results depend on the processing

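With the authors' baseline in place of the array labelled vehicle, the count of higher members was 0 in place of 1 for each treatment. Of all genes, 0.00506% were then higher with estradiol and 0.0657% with ERα17p. By that reference the members' median for estradiol turned from 0.042 to -0.021. All 20 values of 10 named members that were recomputed moved or turned sign. With estradiol E2F8 turned to -0.046, PRIM2 to -0.050, RRM2 to -0.0017 and GINS2 to -0.020. With ERα17p GINS3 turned from -0.30 to 0.14, DTL from -0.11 to 0.15, CCNE2 from -0.014 to 0.10, E2F1 from 0.017 to -0.095 and GINS2 from 0.094 to -0.094. By construction each is then the gene's value on the treated array alone. At 2-fold, 0 members were higher in either comparison with that array (0.0101% and 0.0152% of all genes). At the smaller limit of 0.32, 3 were higher and 3 lower with estradiol and 4 higher with ERα17p. All other counts were within 1.5 times the main count, under the mean over probe sets, centred arrays, the median of the probe sets' differences (added after the data were seen) and with shared-transcript probe sets dropped, which left 38 members. Under these and the mean over members, the summary difference ran from 0.019 (centred arrays) to 0.046 for estradiol, from 0.077 (centred arrays) to 0.13 for ERα17p, and from -0.094 to -0.078 between the treatments; 0.019 is less than the 0.042 reported by over 1.5 times. Without those probe sets GINS2 turned from 0.094 to -0.041 and CCNE2 from -0.014 to 0.12 with ERα17p. With centred arrays E2F1 turned from 0.017 to -0.016 with ERα17p. No replicate could be left out, and no paired analysis was possible because each group has 1 array. How far signals exceeded background was not analysed here.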

Other observations

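The 10 cell type markers differed little between arrays. Against the array labelled vehicle they ran from -0.015 to 0.18 with estradiol and from -0.075 to 0.28 with ERα17p, with GRB7, a neighbour of ERBB2 in its amplified region, at the top in the latter. VIM, COL1A1, PTPRC and PECAM1, markers of stromal cells, leukocytes and endothelium, stayed between -0.14 and 0.20 in all 3 comparisons, and their levels cannot be read.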
